A study of Homo sapiens with 4 samples.

Results

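The genes described here are those of oxidative phosphorylation, in the nuclear and in the mitochondrial genome, as transcribed in the human liver cancer line PLC8024. They were chosen by symbol: subunits and assembly factors of complex I (NDUFA, NDUFB, NDUFC, NDUFS, NDUFV and NDUFAF), the SDHA to SDHD subunits of complex II, the UQCR genes of complex III, the COX genes of complex IV, the ATP5F, ATP5M and ATP5P genes of complex V, and the messenger RNAs of the mitochondrial genome. Of the 26603 genes in the deposited table, 150 symbols matched, 40 of these were pseudogenes and were left out, and 110 genes remained, 13 of them mitochondrial and 97 nuclear. One of the nuclear rows, UQCRB-AS1, is an antisense RNA that matched by its symbol only. NDUFA4 and NDUFA4L2 carry complex I symbols but are placed with complex IV, where the NDUFA4 protein resides. The rule genes ATP5MGL, COX4I2, COX5B, COX6A2, COX8C, NDUFA6, NDUFB10 and NDUFS3 were not analysed here.

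Messenger RNA was sequenced with a stranded library kit in 2 libraries of drug-treated PLC8024 cells and in 2 libraries of control PLC8024 cells. The labels name neither the drug, its dose nor the duration, and do not say what the control cells received. Whether the cultures were separate is not stated, so p-values here reflect the spread between libraries alone, and that spread may be technical. The cell line is the only model: all 4 libraries share it.

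Oxidative phosphorylation takes place in the inner mitochondrial membrane. Complexes I and II pass electrons from NADH and succinate to coenzyme Q, complex III passes them on to cytochrome c, complex IV hands them to oxygen, and complex V, ATP synthase, uses the resulting proton gradient to make ATP. The mitochondrial genome encodes core membrane subunits of complexes I, III, IV and V and is transcribed within the organelle as long precursors, while complex II and all other subunits and assembly factors are made from nuclear genes; hepatocytes are rich in mitochondria.

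The reads assigned to genes came to 40279560 and 38685856 in the drug libraries, against 28526098 and 38611635 in the control libraries. Levels are given in FPKM, fragments scaled to gene length and library total, which allows levels to be compared between genes. Of 12 hepatocyte markers, 9 were at 1 FPKM or more, among them FGB and CPS1, while APOB and TTR, which mark secreting hepatocytes, were under 0.1 FPKM. ALB was low, at 1.31 and 1.32 FPKM with drug, against 3.15 and 3.23 FPKM in control, and AFP was below 1 FPKM in every library. The hepatocyte markers summed to 738 to 774 FPKM in the drug libraries, against 1104 to 1116 FPKM in the control libraries, and the epithelial markers to 400 to 421 FPKM in the drug libraries, against 300 to 313 FPKM in the control libraries. Within the hepatocyte list the genes did not go one way: FGB had 295 and 274 FPKM with drug, against 556 and 549 FPKM in control, and CPS1 had 208 and 203 FPKM with drug, against 306 and 296 FPKM in control, while APOA2 had 137 and 129 FPKM with drug, against 106 and 113 FPKM in control, and the groups overlapped for SERPINA1. Of the epithelial markers KRT8 and KRT18 were higher in both drug libraries, and CDH1 had 7.72 and 7.87 FPKM with drug, against 12.4 FPKM in both control libraries. None of the 6 fibroblast markers with a row reached 1 FPKM, and of the endothelial and immune markers with a row PECAM1 and LYZ did. LYZ had 283 and 287 FPKM with drug, against 181 and 183 FPKM in control, and PECAM1 had 2.09 and 2.23 FPKM with drug, against 4.66 and 4.11 FPKM in control. The part of these marker differences in the results below was not tested, and in bulk RNA fewer cells of a type and less RNA per cell cannot be told apart.

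The mitochondrial messenger RNAs were far more abundant than the nuclear ones. The 13 summed to 98111 and 90954 FPKM in the drug libraries, against 101713 and 97780 FPKM in the control libraries. The 97 nuclear genes summed to 3196 and 3199 FPKM in the drug libraries, against 3241 and 3349 FPKM in the control libraries. The mitochondrial genome as a whole took 10.3% and 9.61% of gene reads in the drug libraries, against 10.8% and 10.5% in the control libraries. The groups overlapped for the sum of the 13, and both drug libraries lay below both control libraries for the nuclear sum and for the mitochondrial share of reads. An exact permutation test of 2 libraries against 2 gives p = 0.333 at best, two-sided, so no such difference can pass a threshold of 0.05.

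**Figure D1:**
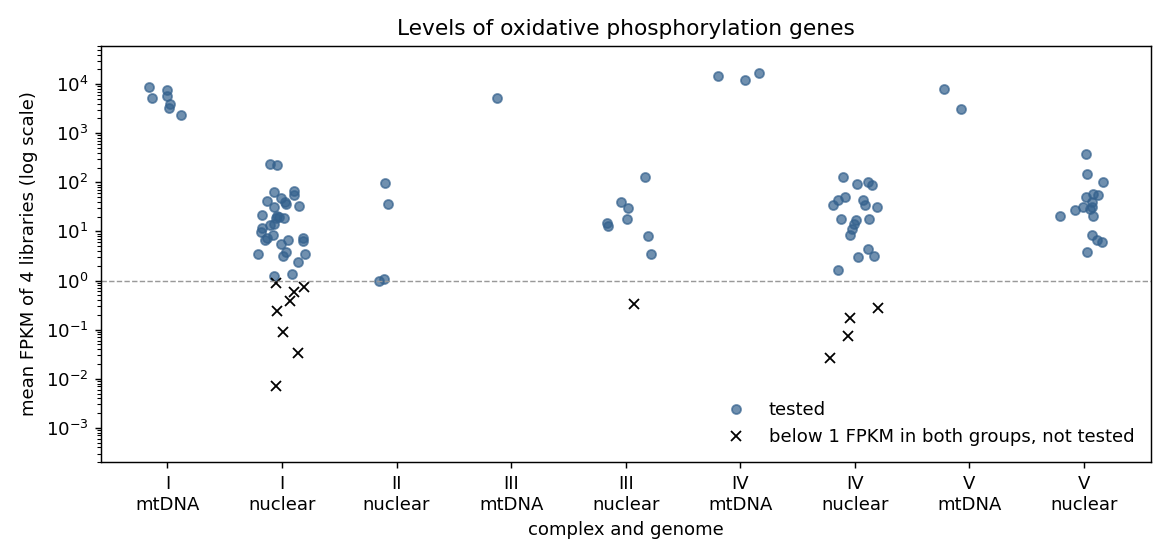
Mean FPKM over the 4 libraries (log axis) of the oxidative phosphorylation genes of complexes I to V, split by genome; each point is a gene, and crosses are genes below 1 FPKM in both groups. The mitochondrial genes lie above all nuclear genes, and most nuclear genes lie between 1 and 100 FPKM.

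Of the 110 genes, 96 had a mean of at least 1 FPKM in at least 1 group and were tested for a difference between drug and control with limma on log2(FPKM + 1), with the p-value adjusted by Benjamini-Hochberg over all 11227 genes tested. At an adjusted p under 0.05, 2 of the 96 rose with drug, among them NDUFA12, and 3 fell, NDUFB6, COX7A2L and MT-CO3. Over all genes tested limma called 7.78% higher and 6.02% lower, 13.8% in either direction, so that the 5.21% of oxidative phosphorylation genes called is a smaller share than the background. The median log2 fold change of drug over control was -0.03 for the 96 genes and 0.04 for all genes tested, and 63.5% of the 96 had a negative value, against 39.0% of all genes tested. The drug libraries lay below both control libraries for 30 of the 96 genes and above them for 17, and the groups overlapped for 49; over all genes tested the drug libraries lay below for 23.3% and above for 40.3%.

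These counts depend on the scaling and the test. With FPKM rescaled by TMM, which brought the median of all genes to 0.00, 1 of the 96 was higher and 9 were lower, against 4.81% and 7.45% of all genes. edgeR's quasi-likelihood test on reads recovered from the table called 2 higher and 13 lower, against 8.37% and 11% of all genes, and DESeq2 called 2 higher and 14 lower, against 6.89% and 9.88%. The 2 higher by edgeR were NDUFA12 and SDHB, and SDHB was high in drug library 1 only. Over all genes limma called 873 higher and 676 lower, while after TMM scaling it called 540 higher and 836 lower. The authors' deposited table has an adjusted p under 0.05 for 12 of the 110, higher with drug for 2 and lower for 10. Over its 26603 genes the shares were 3.18% higher, 4.03% lower and 7.21% in either direction. Of those 26603 genes 15376 were below 1 FPKM in both groups, against 14 of the 110, so these shares are of unlike sets. The 5 limma calls each missed the threshold when any 1 library was left out, with adjusted p-values between 0.0552 and 0.225.

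**Figure D2:**
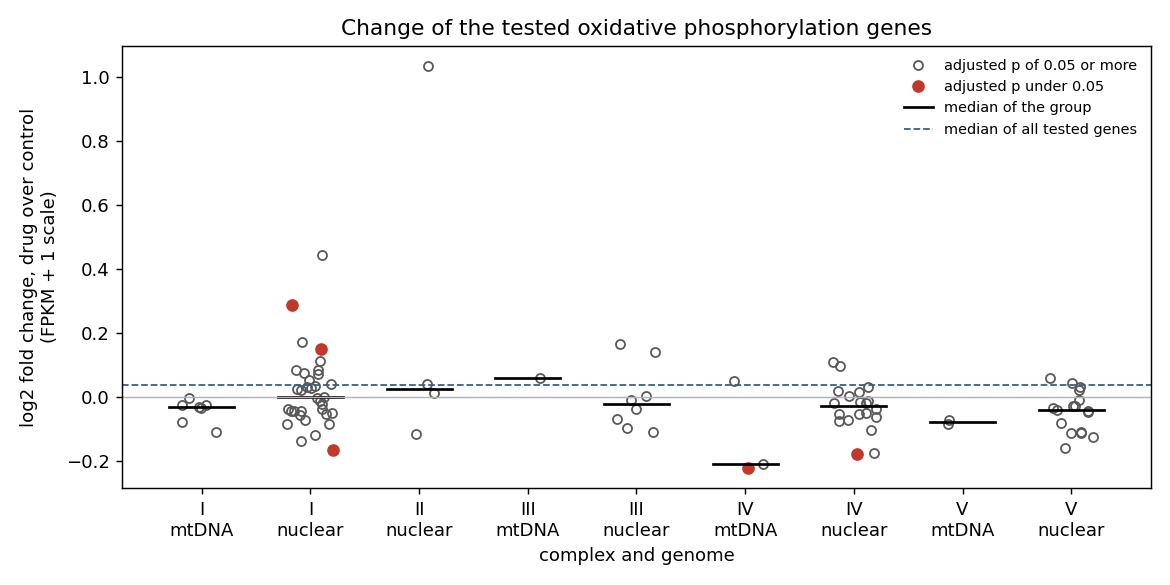
Log2 fold change of drug over control on the FPKM + 1 scale for the tested genes of complexes I to V, split by genome; filled red points passed limma's adjusted p of 0.05, black lines are group medians and the dashed line is the median of all genes tested, 0.04. Most points lie close to 0; the open point near 1 is SDHB, which was high in 1 drug library.

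Complex I oxidises NADH, and its 7 mitochondrial core subunits make up most of its proton-pumping membrane arm. None of the 7 was called by limma, and none had an unadjusted p under 0.05; edgeR and DESeq2 each called MT-ND1 lower. MT-ND1, which lies next to the quinone site, had 3866 and 3742 FPKM in the drug libraries, against 4069 and 3962 FPKM in the control libraries. Its groups did not overlap, with a log2 difference of -0.08 ± 0.04 (SE, n = 2 each; limma adjusted p = 0.194, edgeR adjusted p = 0.0122).

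The other mitochondrial subunits of complex I had smaller or noisier differences. MT-ND3 had 5927 and 5265 FPKM with drug, against 5976 and 6065 FPKM in control, so that its groups did not overlap, and the drug libraries differed from each other by more than the nearest pair across the groups. MT-ND2 had 5389 and 4887 FPKM with drug, against 5298 and 4985 FPKM in control. MT-ND4 had 9200 and 8539 FPKM with drug, against 9376 and 8664 FPKM in control. The groups of MT-ND2 and MT-ND4, both proton-pumping subunits, overlapped.

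MT-ND4L, which overlaps the start of MT-ND4 so that reads there could be split between the genes, had 7843 and 7190 FPKM with drug, against 7919 and 7367 FPKM in control. MT-ND5, another pumping subunit, had 3381 and 3063 FPKM with drug, against 3405 and 3172 FPKM in control. MT-ND6, the lone messenger RNA of the light strand, had 2528 and 2178 FPKM with drug, against 2522 and 2290 FPKM in control. Again the groups overlapped for all 3, and limma's adjusted p was between 0.772 and 0.810.

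Of the 34 tested nuclear genes of complex I, 2 rose and 1 fell by limma, against 7.78% higher and 6.02% lower of all genes tested. Of the 34 log2 fold changes 17 were positive and 17 negative, where 39.0% of all genes tested had a negative value. NDUFA12, an accessory subunit (chromosome 12, 94897055 to 95003770, minus strand, GRCh38), had 8.40 and 8.06 FPKM in the drug libraries, against 6.36 and 6.76 FPKM in the control libraries. Both drug libraries lay above both control libraries, and NDUFA12 rose by 0.29 ± 0.05 on the log2 scale (SE, n = 2 each; 95% interval 0.17 to 0.41; limma adjusted p = 0.0231, edgeR adjusted p = 0.00303), a 25.4% higher mean FPKM. The gene length implied by its reads and FPKM was 8223 bases, against 1815 exonic bases in GENCODE 29, so the authors' counted region was not that gene model, and which transcripts its reads came from was not tested.

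NDUFB6, an accessory subunit of the membrane arm (chromosome 9, 32552999 to 32573184, minus strand), had 30.1 and 30.7 FPKM with drug, against 34.5 and 33.9 FPKM in control. Both drug libraries lay below both control libraries, and NDUFB6 fell by 0.16 on the log2 scale (SE 0.03, n = 2 each; limma adjusted p = 0.0272, edgeR adjusted p = 0.0124).

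The 3 most abundant nuclear genes of complex I did not pass. NDUFS5, an accessory subunit, had 239 and 238 FPKM with drug, against 238 and 239 FPKM in control, a log2 difference with a 95% interval of -0.06 to 0.06. NDUFA1, an accessory subunit encoded on the X chromosome, had 215 and 232 FPKM with drug, against 220.3 and 240.0 FPKM in control, and NDUFB4, another accessory subunit, had 65.5 and 67.6 FPKM with drug, against 69.4 and 67.8 FPKM in control. NDUFB4's groups did not overlap, though its adjusted p by limma was 0.364. NDUFB7, called lower after TMM scaling (adjusted p = 0.0393) and not by limma on FPKM (adjusted p = 0.0752), had 51.4 and 52.2 FPKM with drug, against 55.3 and 58.9 FPKM in control.

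NDUFS1, the largest iron-sulfur subunit, was singled out after its values were seen. It had 2.86 and 4.87 FPKM in the drug libraries, against 2.21 and 2.82 FPKM in the control libraries, so drug library 2 stood apart. EEF1B2, a translation elongation factor gene, overlaps the start of NDUFS1 on the opposite strand. EEF1B2 had 2.18 and 105 FPKM in the drug libraries, against 2.20 and 2.27 FPKM in the control libraries, high in the same library. Its part in the NDUFS1 value was not tested. The 26 nuclear complex I genes not described by name ranged in mean change from -14.1% for NDUFA9 to 19.0% for NDUFB8, with 3 drug below, 7 drug above and 16 overlapping between groups, and the lowest adjusted p by limma among them was 0.142. Among these, the 7 tested NDUFAF assembly factors gave 0 calls by limma, edgeR and DESeq2, 0 at an unadjusted limma p under 0.05, and for 4 of them the drug libraries lay above the control libraries, as they did for 40.3% of all genes tested.

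Complex II, succinate dehydrogenase, is wholly nuclear and also serves the citric acid cycle. Limma called 0 of its 4 subunits, against 13.8% of all genes tested, with 1 at an unadjusted p under 0.05, SDHD. DESeq2 called 1 lower, against 9.88% of all genes, and edgeR called 1 lower and 1 higher, against 11% and 8.37%. SDHD, a membrane anchor, had 34.6 and 35.4 FPKM in the drug libraries, against 38.6 and 37.5 FPKM in the control libraries (log2 difference -0.12, SE 0.03, n = 2 each; limma adjusted p = 0.0692, edgeR adjusted p = 0.0185). SDHC, the other anchor, had 100.001 and 93.7 FPKM with drug, against 92.7 and 99.2 FPKM in control, and SDHA, the flavoprotein, had 1.08 and 1.16 FPKM with drug, against 1.05 and 1.07 FPKM in control. SDHC's implied length was 1902 bases, against 14160 exonic bases in GENCODE 29, so its FPKM against those of other genes rests on which length is used.

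SDHB, the iron-sulfur subunit, had 340 and 21 reads in the drug libraries, against 12 and 10 reads in the control libraries. It had 3.45 and 0.222 FPKM in the drug libraries, against 0.172 and 0.106 FPKM in the control libraries, so that drug library 1 alone exceeded 1 FPKM. The limma difference of 1.03 had a standard error of 0.60 and did not pass (adjusted p = 0.290), while edgeR's adjusted p was 0.0463. Its high value in 1 library is why the gene was tested at all.

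Complex III passes electrons from coenzyme Q to cytochrome c. MT-CYB, cytochrome b and its lone mitochondrial subunit, had 5496 and 5154 FPKM in the drug libraries, against 5204 and 5012 FPKM in the control libraries, and its groups overlapped. Limma called 0 of the 9 tested genes of complex III, against 13.8% of all genes tested, with 1 at an unadjusted p under 0.05. edgeR and DESeq2 each called 1 lower, against 11% and 9.88% of all genes. UQCRFS1, the Rieske iron-sulfur protein, had 28.8 and 29.9 FPKM with drug, against 31.8 and 31.2 FPKM in control (log2 difference -0.10, SE 0.03, n = 2 each; limma adjusted p = 0.109, edgeR adjusted p = 0.0263). UQCRB, called lower by DESeq2 alone (adjusted p = 0.0316), had 15.2 and 13.6 FPKM with drug, against 15.5 and 15.8 FPKM in control.

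UQCRH, the most abundant nuclear subunit of complex III and a binding partner of cytochrome c1, had 126 and 123 FPKM with drug, against 123 and 132 FPKM in control. UQCRC1, a large matrix-side subunit, had 38.4 and 40.8 FPKM with drug, against 39.7 and 40.0 FPKM in control. Both overlapped between groups. The other 4 tested nuclear genes of complex III ranged from -5.53% for UQCR11 to 15.4% for UQCRHL, a near copy of UQCRH whose reads could be split with it.

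Complex IV, cytochrome c oxidase, held the most abundant messenger RNAs and the lowest mitochondrial fold changes. MT-CO3, the third core subunit, fell: it had 11678 and 10980 FPKM in the drug libraries, against 13463 and 12951 FPKM in the control libraries, with no overlap. Its log2 fold change was -0.22 ± 0.05 (SE, n = 2 each; 95% interval -0.35 to -0.10; limma adjusted p = 0.0454, edgeR adjusted p = 0.000934), and it missed the threshold after TMM scaling (adjusted p = 0.0558). MT-CO3 also missed the threshold when libraries were scaled by their nuclear reads alone, and when all genes were tested without the FPKM filter. MT-CO1, the catalytic subunit that reduces oxygen, had 16058 and 14907 FPKM with drug, against 17993 and 17784 FPKM in control (log2 difference -0.21, SE 0.05, n = 2 each; limma adjusted p = 0.0569, edgeR adjusted p = 0.00125). MT-CO2, which takes electrons from cytochrome c, had 15520 and 14622 FPKM with drug, against 14508 and 14601 FPKM in control, so the drug libraries lay above by a small margin, and its adjusted p by limma was 0.492.

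**Figure D3:**
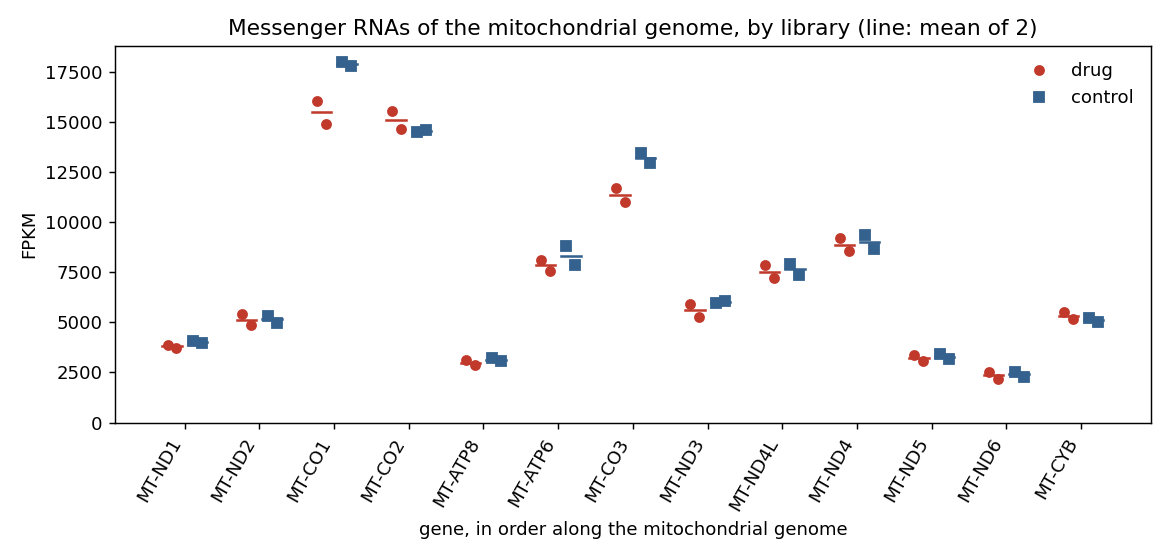
FPKM of the 13 mitochondrial messenger RNAs in each library, in order along the genome; drug libraries are circles on the left of each gene and control libraries squares on the right, and lines are group means. MT-CO1 and MT-CO3 lie lower in both drug libraries, and MT-CO2 does not.

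Ratios between mitochondrial messenger RNAs of the same library do not depend on how the library was scaled. These pairs were chosen after the values were seen. The ratio of MT-CO3 to MT-CYB was 2.12 and 2.13 in the drug libraries, against 2.59 and 2.58 in the control libraries, and that of MT-CO1 to MT-CYB was 2.92 and 2.89 with drug, against 3.46 and 3.55 in control. MT-CO1 over MT-CO2 was 1.03 and 1.02 with drug, against 1.24 and 1.22 in control. By contrast MT-CO3 over MT-CO1 was 0.727 and 0.737 with drug, against 0.748 and 0.728 in control, which overlapped. MT-CO1 and MT-CO3 were thus lower in proportion to MT-CYB and MT-CO2, and no ratio shows which of them changed. A lower ratio to MT-CO2 was not particular to these genes. MT-ND1 over MT-CO2 was 0.249 and 0.256 with drug, against 0.280 and 0.271 in control. MT-ATP6 over MT-CO2 was 0.522 and 0.518 with drug, against 0.605 and 0.538 in control. MT-CYB over MT-CO2 overlapped, at 0.354 and 0.352 with drug, against 0.359 and 0.343 in control. The exact permutation p of the non-overlapping ratios was 0.333, two-sided, the smallest that 2 libraries against 2 allow.

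As a share of the 13 messenger RNAs, MT-CO1 took 16.4% in both drug libraries, against 17.7% and 18.2% in the control libraries. MT-CO2 took 15.8% and 16.1% with drug, against 14.3% and 14.9% in control, and MT-CYB took 5.60% and 5.67% with drug, against 5.12% and 5.13% in control. The shares of MT-ND2, MT-ND4, MT-ND4L and MT-ND5 were also larger in both drug libraries than in both control libraries, by 3.38% to 5.42% in the mean. The shares of the 13 sum to the whole, so a lower share of one gene raises the others.

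**Figure D4:**
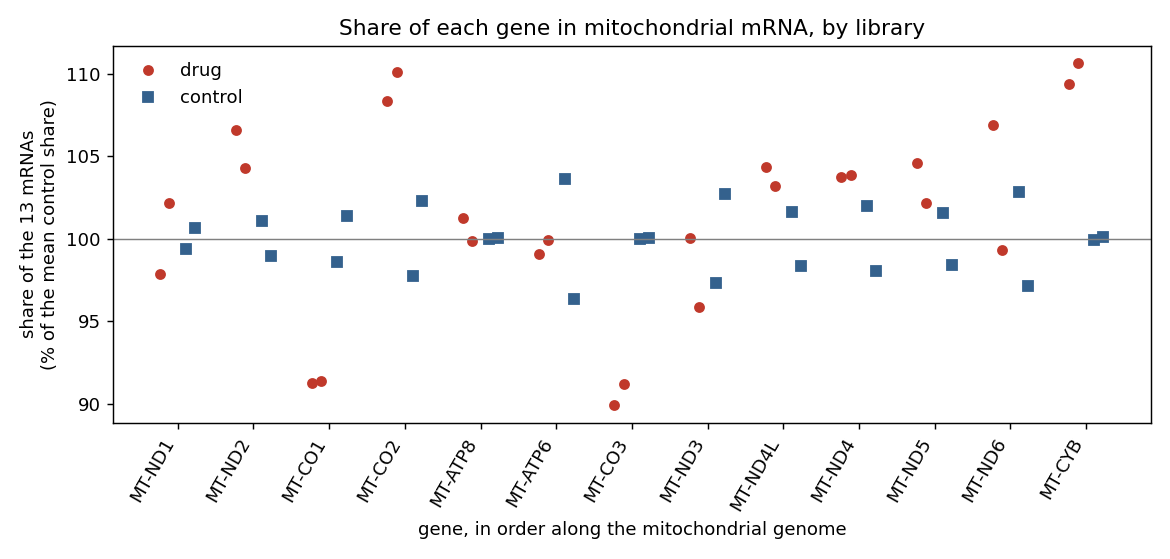
Share of each gene in the FPKM sum of the 13 mitochondrial messenger RNAs, as a percentage of its mean control share; circles are drug and squares control libraries. MT-CO1 and MT-CO3 lie near 90% with drug, and MT-CO2 and MT-CYB lie above 100% in both drug libraries. MT-ND2, MT-ND4, MT-ND4L and MT-ND5 also lie above 100% in both drug libraries, by less.

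Stretches of the mitochondrial genome also lie on chromosome 1 as nuclear copies, and reads that fit both could be assigned to either. The copies of 6 of the 13 genes were 98.1% to 98.7% identical to them over the aligned bases. Windows of 60 bases from the genes and their copies, from GENCODE 29 transcripts of GRCh38, are shown because they hold the kind of difference that a read must cover to be placed; the capital marks the 1 position in each window that differs.
MT-CO1: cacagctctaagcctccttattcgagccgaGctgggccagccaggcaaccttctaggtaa
MTCO1P12: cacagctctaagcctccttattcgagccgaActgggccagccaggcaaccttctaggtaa
MT-CO3: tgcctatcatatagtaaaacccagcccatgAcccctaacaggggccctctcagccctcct
MTCO3P12: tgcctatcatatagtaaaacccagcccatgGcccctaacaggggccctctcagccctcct
MT-ATP6: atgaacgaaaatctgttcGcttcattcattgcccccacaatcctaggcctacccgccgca
MTATP6P1: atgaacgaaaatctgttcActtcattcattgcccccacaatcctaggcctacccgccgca

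The windows lie on the plus strand at chrM:5993-6052, chr1:631163-631222, chrM:9224-9283, chr1:634393-634452, chrM:8527-8586 and chr1:633696-633755, in the order shown. The level of the copies differed widely. MTATP6P1 had 26.0% of the FPKM of MT-ATP6 and MTND1P23 had 25.4% of that of MT-ND1, whereas MTCO1P12 had 0.3496% of MT-CO1, MTCO3P12 had 0.0306% of MT-CO3 and MTCO2P12 had 0.0153% of MT-CO2. With the reads of gene and copy added together relative to all gene reads, MT-CO1 differed by -13.4% between drug and control and MT-CO3 by -14.2%, and MT-CO2 was 3.56% higher with drug. By the same sum MT-ATP6 differed by -5.77%, MT-ND1 by -4.98% and MT-ND2 by -0.0048%. For the COX genes the copies hold too few reads for the sum to differ from the gene alone, and the part of read placement in their differences was not tested.

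Of the 20 tested nuclear genes of complex IV, limma called 1, against 13.8% of all genes tested. The gene called was COX7A2L, which binds complexes III and IV into supercomplexes (chromosome 2, 42333546 to 42425088, minus strand). It had 16.6 FPKM in both drug libraries, against 18.9 FPKM in both control libraries, and fell by 0.18 on the log2 scale (SE 0.03, n = 2 each; limma adjusted p = 0.0239, edgeR adjusted p = 0.00271, adjusted p after TMM scaling 0.0157). COX7B, a small subunit, had 41.6 and 42.2 FPKM with drug, against 44.9 and 49.999 FPKM in control (limma adjusted p = 0.0956, edgeR adjusted p = 0.0182). COX7C, another small subunit, had 123 and 119 FPKM with drug, against 124 and 137 FPKM in control, and was called lower by DESeq2 alone (adjusted p = 0.0205).

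Some nuclear subunits of complex IV have tissue-restricted isoforms; the restricted forms of COX4I1 and COX6A1 were not analysed here. COX4I1 had 44.2 and 44.6 FPKM with drug, against 42.5 and 46.2 FPKM in control, and COX5A, an abundant subunit with no such pair, had 103 and 102 FPKM with drug, against 99.7 and 103 FPKM in control. COX6A1 had 31.2 and 29.8 FPKM with drug, against 32.2 and 31.2 FPKM in control. COX7A2, the form found in most tissues, had 86.4 and 89.4 FPKM with drug, against 88.2 and 89.9 FPKM in control, while COX7A1, the heart and muscle form, had 0.127 and 0.441 FPKM with drug, against 0 and 0.133 FPKM in control.

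COX6B1 had 95.1 and 88.9 FPKM with drug, against 92.8 and 101 FPKM in control, while its testis form COX6B2 had at most 0.0565 FPKM in any library. COX7B2, a paralog of COX7B known from testis, was present at 8.20 and 9.30 FPKM with drug, against 7.59 and 8.62 FPKM in control. NDUFA4 had 49.3 and 50.6 FPKM with drug, against 50.2 and 54.3 FPKM in control, and its hypoxia-inducible paralog NDUFA4L2 had 0.0709 and 0.0553 FPKM with drug, against 0.10005 and 0.0739 FPKM in control. COX7A1, COX6B2 and NDUFA4L2 were below 1 FPKM in both groups and not tested, and none of the other genes of these pairs passed. The 10 other tested nuclear genes of complex IV, mostly assembly factors, ranged from -6.22% for COX18, an insertase, to 8.66% for COX17, a copper chaperone; limma, edgeR and DESeq2 called 0 of the 8 tested assembly factors, with 1 at an unadjusted limma p under 0.05.

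Of complex V, limma called 0 of its 19 genes, with 5 at an unadjusted p under 0.05, while edgeR and DESeq2 each called 5 lower, against 11% and 9.88% of all genes tested, and TMM-scaled limma 4 lower, against 7.45%; 15 of the 19 log2 fold changes were negative. For 9 of the 17 nuclear genes the drug libraries lay below the control libraries and for 2 above, against 23.3% and 40.3% of all genes tested. The 17 nuclear genes summed to 984 and 989 FPKM in the drug libraries, against 1028 and 1048 FPKM in the control libraries, a difference of -5.03% in the mean (exact permutation p = 0.333, the smallest possible).

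Among the catalytic head, ATP5F1B, the catalytic beta subunit and the most abundant nuclear gene of the set, had 355 and 365 FPKM with drug, against 387 and 391 FPKM in control (log2 difference -0.11, SE 0.03, n = 2 each; limma adjusted p = 0.0539, edgeR adjusted p = 0.00219). ATP5F1A, the alpha subunit, had 54.9 and 55.3 FPKM with drug, against 59.0 and 61.4 FPKM in control (limma adjusted p = 0.0577, edgeR adjusted p = 0.00362). ATP5F1C, the gamma subunit of the rotor stalk, had 145 FPKM in both drug libraries, against 150.1 and 149 FPKM in control, with no overlap and limma adjusted p = 0.277. ATP5F1E, the epsilon subunit, had 26.4 and 25.7 FPKM with drug, against 27.7 and 28.6 FPKM in control (limma adjusted p = 0.0850, edgeR adjusted p = 0.0314).

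In the membrane part, ATP5MC3, 1 of the 3 genes for the c ring, had 54.6 and 51.4 FPKM with drug, against 58.6 and 60.02 FPKM in control (limma adjusted p = 0.0556, edgeR adjusted p = 0.0151). The other c ring genes, ATP5MC1 and ATP5MC2, which encode the same mature protein, differed by 4.29% or less. ATP5MJ, a small membrane subunit, had 30.9 and 30.02 FPKM with drug, against 32.8 and 33.2 FPKM in control (limma adjusted p = 0.0688, edgeR adjusted p = 0.0252), and ATP5MK, another, had 100.2 and 98.1 FPKM with drug, against 100.1 and 104 FPKM in control. Of the mitochondrial subunits, MT-ATP6 of the proton channel had 8102 and 7571 FPKM with drug, against 8783 and 7853 FPKM in control, and MT-ATP8, which overlaps it, had 3124 and 2855 FPKM with drug, against 3196 and 3075 FPKM in control; both overlapped between groups.

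**Figure D5:**
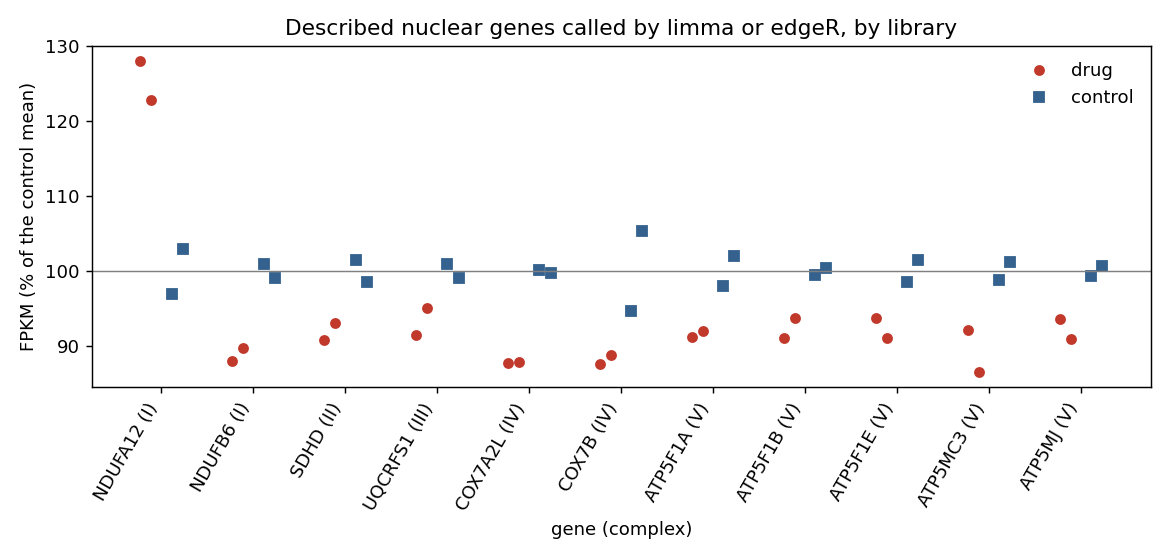
FPKM of each library as a percentage of the control mean for the described nuclear genes with an adjusted p under 0.05 by limma or edgeR, with the complex in brackets; circles are drug and squares control libraries. SDHB, high in 1 drug library only, is left out. NDUFA12 lies above 120% with drug, and the other 10 genes lie between 86.6% and 95.04%.

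Among the nuclear genes plotted, the 25.4% of NDUFA12 was the largest difference in mean FPKM, and COX7A2L had the lowest, -12.2%. In the authors' deposited table, the 10 genes called lower were MT-CO3, NDUFB6, SDHD, COX7A2L, COX7B, ATP5MJ, ATP5F1A, ATP5F1B, ATP5F1E and ATP5MC3, and the 2 called higher included NDUFA12. The deposited log2 fold changes of these ranged from -0.25 for MT-CO3 to 0.29 for NDUFA12.

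Many nuclear genes of oxidative phosphorylation carry a binding site of NRF1, a regulator of mitochondrial genes, near their start. Promoters from RefSeq (GRCh38.p14) were found for 78 of the nuclear genes, and the 250 bases before each start were searched on both strands. The NRF1 core GCGCATGC was in 12 of them, 15.4%, against 3.70% of 15843 coding promoters. The ETS motif CCGGAAG was in 18, 23.1% against 11.8%, the YY1 motif AAGATGGC in 1, 1.28% against 1.39%, and TATAAA in 7, 8.97% against 9.23%. The core reads on both strands at once where it extends to a palindrome. Stretches of 60 bases, 5′ to 3′ on the strand of the gene, are shown for a gene of each complex that has such a palindrome, since these genes are described above; complex III had no match, and capitals mark the matches.
NDUFB4: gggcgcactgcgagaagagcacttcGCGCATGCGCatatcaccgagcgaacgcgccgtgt
SDHD: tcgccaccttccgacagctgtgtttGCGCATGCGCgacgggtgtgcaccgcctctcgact
COX17: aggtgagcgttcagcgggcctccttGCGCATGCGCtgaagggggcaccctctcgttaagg
ATP5F1C: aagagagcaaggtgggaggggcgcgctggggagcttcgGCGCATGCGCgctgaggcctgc

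In the same order these lie at chr3:120596152-120596211 on the plus strand, chr11:112086738-112086797 on the plus strand, chr3:119677488-119677547 on the minus strand and chr10:7788117-7788176 on the plus strand. Of the 12 genes with the core NDUFS7 was not tested, and limma called 0 of the others, against 13.8% of all genes tested. SDHD among them was lower by edgeR, by DESeq2 and after TMM scaling, and SDHB was higher by edgeR alone. SDHB had 340 and 21 reads with drug, against 12 and 10 reads in control, and was tested only because of drug library 1. Of the 4 shown, NDUFB4, SDHD and ATP5F1C had both drug libraries below both control libraries, and COX17 had both above. Over all genes tested 23.3% lay below and 40.3% above. Among the other tested genes with the core, ATP5ME, ATP5PF and NDUFS6 overlapped between groups, COX6A1 and COX18 lay below, and ATP5MC2 and SDHB lay above. NDUFA12, NDUFB6, COX7A2L and ATP5F1A held none of the 4 motifs in their windows. A match is a run of letters and not a measured binding site.

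Another 14 genes, 8 of complex I, 1 of complex III, 4 of complex IV and UQCRB-AS1, stayed below 1 FPKM in both groups and were not tested. Several encode subunits that a working complex needs. NDUFA3 had 2 reads over all 4 libraries, both in control library 1, and NDUFB9 had at most 26 reads in a library. NDUFA11, NDUFA7, NDUFA13, NDUFAF5, NDUFS7, NDUFV2, UQCRC2 and COX20 were also listed below 1 FPKM. UQCRC2, a large matrix-side subunit of complex III, had 0.330 and 0.237 FPKM with drug, against 0.351 and 0.418 FPKM in control. NDUFV2, an iron-sulfur subunit that takes part in NADH oxidation, had 0.632 and 0.810 FPKM with drug, against 0.789 and 0.688 FPKM in control, while its pseudogene NDUFV2P1 had 6.43 and 5.76 FPKM with drug, against 5.53 and 4.65 FPKM in control.

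Of the 13 untested genes other than the antisense RNA, the GENCODE 29 exons of 10 overlapped those of another gene on either strand, against 44 of the 83 tested nuclear genes. On the same strand, 5 of the 13 overlapped another gene, against 24 of the 83. The part of that overlap, and of the gene models the authors counted over, in these low values was not tested. Of 104 genes with at least 50 reads, the implied length was within 1% of GENCODE 29 for 54.

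Genes around the pathway were read from lists chosen with earlier results of these data known. Of 40 tested subunits and factors of oxidative phosphorylation outside the symbol rule, 1 rose and 0 fell by limma, where 7.78% of all genes tested were higher and 6.02% lower; edgeR called 2 higher and 4 lower, against 8.37% and 11% of all genes. The gene that rose was COA7, a complex IV assembly factor, with 22.6 and 23.1 FPKM with drug, against 20.03 and 19.5 FPKM in control (limma adjusted p = 0.0227). Of 16 tested genes that copy or transcribe mitochondrial DNA, 2 rose and 0 fell by limma, and edgeR called 2 higher and 1 lower. TWNK, the replicative helicase, had 16.8 and 17.3 FPKM with drug, against 14.3 and 14.2 FPKM in control (limma adjusted p = 0.0150), and MGME1, a mitochondrial DNA exonuclease, had 25.9 and 25.8 FPKM with drug, against 21.6 and 21.998 FPKM in control (limma adjusted p = 0.0116). TFAM, which packages and transcribes mitochondrial DNA, had 21.2 and 20.7 FPKM with drug, against 22.2 and 22.7 FPKM in control, and was lower by edgeR (adjusted p = 0.0407) and not by limma (adjusted p = 0.111). Of 19 tested genes of mitochondrial RNA processing, 1 rose and 0 fell by limma, and edgeR called 2 higher and 1 lower. The gene that rose was FASTKD3, a member of a family of mitochondrial RNA-binding proteins, with 8.86 and 9.34 FPKM with drug, against 7.02 and 7.34 FPKM in control (limma adjusted p = 0.0187).

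Of 11 tested nuclear regulators 2 rose and 0 fell by limma, and edgeR called 1 higher and 1 lower. Over all genes tested limma called 7.78% higher and 6.02% lower, and edgeR 8.37% and 11%. PPARGC1A, a coactivator of mitochondrial genes, had 2.06 and 2.33 FPKM with drug, against 2.53 and 2.74 FPKM in control, and was lower by edgeR (adjusted p = 0.0263) and not by limma (adjusted p = 0.158). HCFC1, a transcriptional co-regulator, had 19.0 and 20.8 FPKM with drug, against 16.6 and 17.1 FPKM in control (limma adjusted p = 0.0440), and ESRRA, a nuclear receptor that drives mitochondrial genes, had 9.53 and 9.77 FPKM with drug, against 8.41 and 8.14 FPKM in control (limma adjusted p = 0.0344). Both missed the threshold after TMM scaling, with adjusted p-values of 0.0544 and 0.0540, and ESRRA also missed it by edgeR (adjusted p = 0.0782). Of 12 tested genes of coenzyme Q synthesis, PDSS2 and COQ10B rose and COQ10A fell by limma, and edgeR called 1 higher and 1 lower. These counts stand beside the same shares of all genes tested. COQ10A, a coenzyme Q-binding protein, had 4.26 and 4.03 FPKM with drug, against 5.16 and 5.06 FPKM in control (limma adjusted p = 0.0349). PDSS2, which makes the side chain, had 16.3 and 16.5 FPKM with drug, against 14.4 and 14.9 FPKM in control (limma adjusted p = 0.0450), and missed the threshold after TMM scaling, as did COQ10B. The median log2 fold changes of these lists were 0.01, 0.05, 0.04, 0.06 and 0.10 in the order given, against 0.04 for all genes tested.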

How the data were processed

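Messenger RNA of PLC8024 cells was measured in 2 drug and 2 control libraries (trizol RNA, TruSeq stranded mRNA, per the labels' protocols). Per the submitters' processing notes, bcl2fastq was used and the build was hg38; the aligner, counter and annotation were not given in the sources used here. Deposited values per library are FPKM, a unit read from the numbers themselves since no header names it. Deposited values per group are mean normalized reads, a signal that the authors averaged over each group. Per the file headers, the authors also deposited a log2 fold change of drug over control, a p-value and an adjusted p-value for each gene. Every gene in the table had a read in at least 1 control library, while 2073 genes had 0 in both drug libraries, so genes read with drug alone were not analysed here.

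Genes with a group mean of at least 1 FPKM entered a two-sided limma 3.58.1 fit with trend, on the log2(FPKM + 1) scale, with Benjamini-Hochberg adjustment over 11227 genes; fold changes of low genes are understated on this scale. Whole reads were recovered from FPKM and group means (100% of values within 0.1 read) and tested with edgeR 4.0.16 and DESeq2 1.42.0. On simulated data with 11227 genes, limma recovered 20% of genes changed 1.25-fold and 98% of those changed 1.5-fold in drug versus control, and edgeR 60% and 100%. Of limma's 175 calls there, 16 were of unchanged genes, and of edgeR's 189 calls, 9 were. The simulated spread was set at a fixed value and not taken from these libraries, and low genes were not among those changed. Positions, exon lengths and overlaps came from GENCODE 29 (GRCh38), in which all 110 genes matched.

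The genes, lists and alternatives were chosen with earlier results of these data known. Genes named with values were all mitochondrial ones, nuclear ones past the test, the 3 most abundant nuclear ones per complex, fixed isoform pairs and up to 4 passing genes per list. NDUFS1, SDHB, NDUFB7, TFAM, LRPPRC, PPARGC1A and those called by other tools or named for their range or low level were added after values were seen. Alternatives were other pseudocounts, no filter, a replicate block, each library left out, other scalings and the count tests. One gene past the test is counted but not otherwise reported here.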

Additional observations from a re-analysis of the deposited data

How the results depend on the processing

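The counts of oxidative phosphorylation genes were small and moved with most settings. They were 2 higher and 3 lower by limma. Pseudocounts of 0.1 and 0.01 gave 2 higher, with 4 and 3 lower. Without the filter 0 and 0 passed, with 16 at an unadjusted p under 0.05, and over all genes 170 were higher and 214 lower. TMM scaling gave 1 higher and 9 lower (all genes 540 higher), nuclear-total scaling 1 higher and 4 lower, edgeR 2 and 13 (all genes 1233 lower) and DESeq2 2 and 14 (all genes 1109 lower). The 2 higher by edgeR included SDHB, high in drug library 1 only. Leaving out any 1 library gave 0 to 1 higher and 0 to 1 lower, and over all genes 167 to 298 higher and 253 to 315 lower; the lone library of a group was then assumed to vary like the other group. No fold change of a named gene that was called changed sign in any setting.

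With the replicate number as a block, 0 of the oxidative phosphorylation genes were higher and 1 was lower, MT-CO3 (adjusted p = 0.0408), and over all genes 474 were higher and 451 lower. The deviations of same-numbered libraries correlated at 0.03, so the numbers are not shown to pair the libraries. With 2 libraries a group, most differences described were smaller than limma could reliably recover on simulated data. The cause of the differences between settings was not tested.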
